A study of Homo sapiens with 4 samples.

Results

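The genes described here are 9 enzymes and carriers that make serine, pass its carbon through folate, or bring amino acids into the cell. They were chosen by symbol and are 9 of the 26364 gene symbols counted in NCI-H460 cells, a long-established line from a human lung carcinoma. Serine synthesis is represented by PHGDH, PSAT1 and PSPH, the one-carbon folate enzymes by SHMT1, SHMT2, MTHFD1 and MTHFD2, and large neutral amino acid uptake by SLC7A5 and SLC3A2. The cells were exposed to 4 Gy or 0 Gy of gamma rays before culture with 2 uM 3-deazaneplanocin A (DZNep), an inhibitor of S-adenosylhomocysteine hydrolase, or with its solvent DMSO. The 4 groups were DZNep 4 Gy, DZNep 0 Gy, DMSO 4 Gy and DMSO 0 Gy, each harvested after 48 h and each 1 library of poly(A) RNA. No group therefore has a replicate, and the labels do not say whether the 4 libraries came from separate cultures.

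Serine is made from a glycolytic intermediate in 3 steps, of which PHGDH catalyses the first, PSAT1 the second and PSPH the last. Serine hydroxymethyltransferase, SHMT2 in mitochondria and SHMT1 in the cytosol, then moves a carbon from serine to tetrahydrofolate and leaves glycine. MTHFD2 in mitochondria and MTHFD1 in the cytosol carry the folate-bound carbon through its oxidation states, which supplies purine, thymidylate and methionine synthesis. SLC7A5 is the light chain that exchanges large neutral amino acids such as leucine across the plasma membrane, and SLC3A2 is the heavy chain that brings it there. Several of these genes are known targets of ATF4, the transcription factor of the amino acid response.

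The libraries held 112461380 to 136594350 counts, and their scaling factors lay between 0.979 and 1.01. Levels below are counts relative to library size (CPM) after TMM scaling, a correction for differences in library composition, and all 9 genes passed the filter of 1 CPM or more in at least 2 libraries. Of the epithelial markers, KRT8 and KRT18 stood at 633 to 2070 CPM, KRT19 at 146 to 247 CPM and KRT7 at 6.94 to 15.7 CPM, whereas EPCAM and CDH1 stayed at 0.0440 to 0.491 CPM. The sum of the 6 epithelial markers was 3900 to 4310 CPM in the DZNep libraries and 1500 to 1780 CPM in the DMSO libraries, and its part in the results below was not tested. That sum is mostly KRT8 and KRT18. At each dose KRT8, KRT18, KRT7 and CDH1 were higher with DZNep, and KRT19 and EPCAM were lower. The sums of the marker lists of other cell types were 14.8 to 16.2 CPM for blood, 0.0144 to 0.703 CPM for endothelium and 5.04 to 11.7 CPM for fibroblasts, the last mostly PDGFRB. HBB had no count in any library, and PTPRC and CD3E had no count in 3 of the 4.

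DZNep was accompanied by higher RNA levels of PSAT1, PHGDH, SLC3A2 and SHMT2, while none of the 9 genes was called lower. Over the 4 libraries, 4 of the 9 genes rose and 0 fell past an adjusted p of 0.05 in edgeR's quasi-likelihood test with drug and dose as factors. Among all 13378 tested genes, 10.8% rose and 12.3% fell by that rule. At an unadjusted p under 0.05 there were 8 of the 9 genes, with MTHFD1 as the single lower one, against 36% of all tested genes in either direction. DESeq2 also called 4 higher and 0 lower, against 9.96% and 10.3% of all tested genes. The median log2 fold change of the 9 genes was 0.47, and that of all tested genes was -0.02. Both DZNep libraries lay above both DMSO libraries for 7 of the 9 genes, a pattern seen in 26.3% of tested genes, and below them for 0, against 27.8% of tested genes. The exceptions were SHMT1 and MTHFD1, whose groups overlapped.

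**Figure D1:**
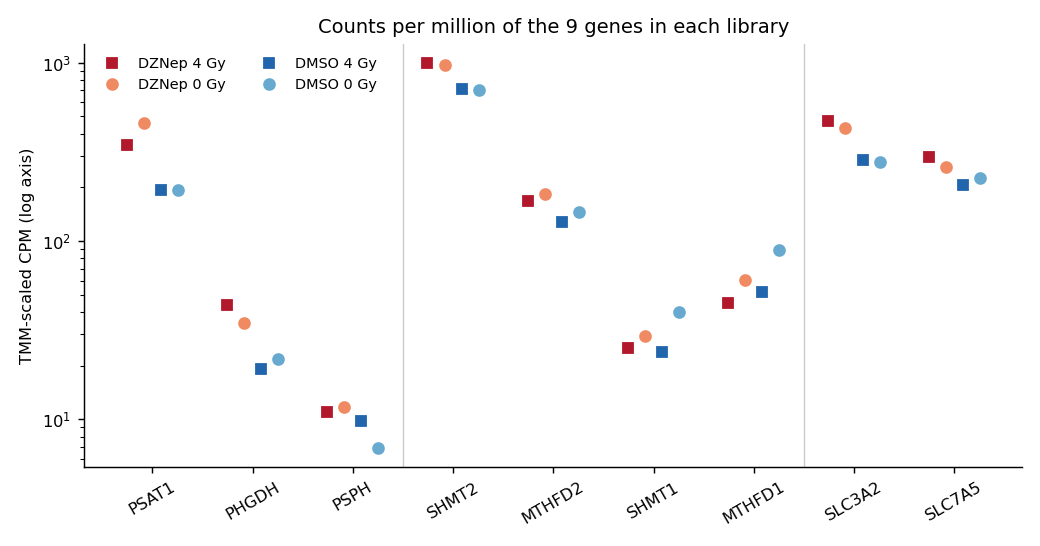
TMM-scaled CPM on a log axis for the 9 genes, 1 point a library, in the order DZNep 4 Gy, DZNep 0 Gy, DMSO 4 Gy, DMSO 0 Gy, with vertical lines between serine synthesis, folate enzymes and carriers. Both DZNep points lie above both DMSO points for 7 genes, and SHMT1 and MTHFD1 are highest in DMSO 0 Gy.

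Of the serine synthesis genes, PSAT1 and PHGDH rose with DZNep and PSPH did not pass the test. PSAT1 stood at 346 CPM in DZNep 4 Gy and 461 CPM in DZNep 0 Gy, against 194 CPM in DMSO 4 Gy and 192 CPM in DMSO 0 Gy. The DZNep libraries did not overlap the DMSO libraries, and the unirradiated DZNep library was the highest. Its log2 fold change was 1.05 (SE 0.15, adjusted p = 0.000502), which placed it 513th from the top among the 13378 tested genes. PHGDH stood at 43.7 and 34.8 CPM with DZNep at 4 and 0 Gy, against 19.2 and 21.9 CPM with DMSO at 4 and 0 Gy. Here the irradiated DZNep library was the highest and the irradiated DMSO library the lowest. The log2 fold change was 0.92 (SE 0.18, adjusted p = 0.00321). With dose left out of the model the adjusted p of PHGDH was 0.0502, so that its call depended on the model, whereas PSAT1 was still called.

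PSPH is the phosphatase of the last step. It had 11.0 and 11.8 CPM with DZNep at 4 and 0 Gy, against 9.77 and 6.92 CPM with DMSO at 4 and 0 Gy. The groups did not overlap, but most of their distance came from the unirradiated DMSO library. The log2 fold change was 0.47 (SE 0.21, 95% interval 0.01 to 0.92, adjusted p = 0.129) and did not pass.

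The promoters of the 2 serine synthesis genes that rose are shown because both genes were higher in both DZNep libraries. They are the 250 bases before the RefSeq start, on the plus strand of GRCh38.p14, at chr9:78296875-78297124 for PSAT1 and chr1:119711684-119711933 for PHGDH. Capitals mark the letters CCAAT, the core read by the factor NF-Y.
PSAT1: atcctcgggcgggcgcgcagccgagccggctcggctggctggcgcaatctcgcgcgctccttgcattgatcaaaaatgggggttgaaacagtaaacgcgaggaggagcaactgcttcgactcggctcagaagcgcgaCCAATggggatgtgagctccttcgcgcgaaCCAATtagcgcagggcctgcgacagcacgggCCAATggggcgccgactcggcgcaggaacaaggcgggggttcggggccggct
PHGDH: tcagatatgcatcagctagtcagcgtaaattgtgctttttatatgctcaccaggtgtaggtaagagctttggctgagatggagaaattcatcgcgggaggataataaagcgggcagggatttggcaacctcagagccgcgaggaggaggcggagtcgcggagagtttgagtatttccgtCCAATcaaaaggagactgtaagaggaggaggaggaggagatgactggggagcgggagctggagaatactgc
CCAAT occurs 3 times before the start of PSAT1 and 1 time before that of PHGDH. Neither RefSeq window of 300 bases, which adds 50 bases after the start, held TGATGNAA, a core bound by ATF4 with C/EBP proteins, or CACGTG, the E-box core, on either strand. The RefSeq table gave 9 such windows for 7 of the 9 genes, and PSPH and SHMT2 were not searched. In both strands, CCAAT was found in 6 of these 9 windows and in 34.6% of the 35116 windows of all genes, CACGTG in 2 and in 7.26%, and TGATGNAA in 1 and in 3.62%. The motifs were chosen after expression values were known and do not overlap each other in these windows. A match is only a description of the letters.

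Of the mitochondrial folate enzymes, SHMT2 rose with DZNep and MTHFD2 did not pass. SHMT2 had 994 and 972 CPM with DZNep at 4 and 0 Gy, against 710 and 705 CPM with DMSO at 4 and 0 Gy. The libraries of each drug group lay close together and the groups did not overlap. The log2 fold change was 0.47 (SE 0.13, adjusted p = 0.0204), a 1.39-fold rise, and the adjusted p was 0.138 without dose in the model. MTHFD2 had 168 and 184 CPM with DZNep at 4 and 0 Gy, against 129 and 145 CPM with DMSO at 4 and 0 Gy. These groups also did not overlap, but the log2 fold change of 0.36 (SE 0.15, 95% interval 0.05 to 0.68) had an adjusted p of 0.0907.

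The cytosolic enzymes SHMT1 and MTHFD1 had lower fitted values in DZNep, and neither passed the test. SHMT1 had 25.0 and 29.4 CPM with DZNep at 4 and 0 Gy, against 23.8 and 39.8 CPM with DMSO at 4 and 0 Gy. MTHFD1 had 44.8 and 60.2 CPM with DZNep at 4 and 0 Gy, against 51.8 and 88.8 CPM with DMSO at 4 and 0 Gy. In both genes the unirradiated DMSO library was the highest and the other libraries lay nearer to each other. The drug log2 fold changes were -0.18 (SE 0.18, 95% interval -0.57 to 0.20, adjusted p = 0.49) for SHMT1 and -0.39 (SE 0.16, 95% interval -0.74 to -0.03, adjusted p = 0.107) for MTHFD1. The split by compartment was made after the values were known and was not tested as a group.

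The MTHFD1 promoter is shown as that of the gene with the lowest drug and radiation fold changes of the 9. It is given as the 250 bases before the start, at chr14:64388103-64388352 on the plus strand of GRCh38.p14, with CCAAT and CACGTG in capitals.
MTHFD1: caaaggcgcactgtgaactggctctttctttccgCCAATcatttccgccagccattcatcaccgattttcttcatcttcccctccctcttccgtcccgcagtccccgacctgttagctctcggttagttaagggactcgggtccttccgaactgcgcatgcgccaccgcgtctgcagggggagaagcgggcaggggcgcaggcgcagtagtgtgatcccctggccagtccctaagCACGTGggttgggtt
The CACGTG in this stretch begins at position -15 from the start, and SLC7A5 was the other of the 7 genes searched with that core, beginning at position -130.

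Of the transporter subunits, the heavy chain SLC3A2 rose with DZNep and the light chain SLC7A5 did not pass. SLC3A2 had 469 and 430 CPM with DZNep at 4 and 0 Gy, against 286 and 279 CPM with DMSO at 4 and 0 Gy. The groups did not overlap, and within each drug the irradiated library was slightly the higher. The log2 fold change was 0.67 (SE 0.14, adjusted p = 0.00444), and the adjusted p was 0.0648 without dose in the model. SLC7A5 had 296 and 259 CPM with DZNep at 4 and 0 Gy, against 206 and 226 CPM with DMSO at 4 and 0 Gy. Its groups did not overlap either, but the log2 fold change of 0.36 (SE 0.15, 95% interval 0.04 to 0.68) had an adjusted p of 0.102.

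SLC3A2 was the only one of the 7 genes searched whose RefSeq windows held the ATF4 core TGATGNAA, in 1 of its 3 alternative start windows. The match lies on the minus strand, 37 to 44 bases after that start, and is shown in 30 bases at chr11:62881719-62881748 of GRCh38.p14, read on the plus strand with the matching letters in capitals.
SLC3A2: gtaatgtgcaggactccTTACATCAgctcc
The deposited counts are per gene, so they do not say which of the 3 starts was used.

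**Figure D2:**
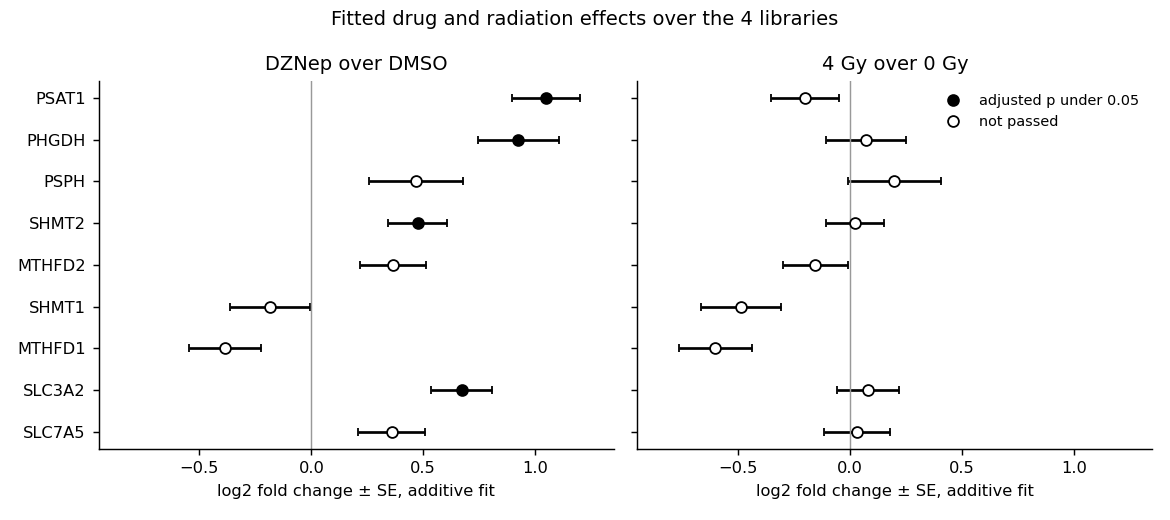
Log2 fold changes with their standard errors from the additive fit over the 4 libraries, for DZNep over DMSO on the left and 4 Gy over 0 Gy on the right. Filled points passed an adjusted p of 0.05, which holds for PSAT1, PHGDH, SHMT2 and SLC3A2 on the left and for no gene on the right.

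Set side by side at each dose, the drug ratios of PSAT1, SLC3A2, SHMT2, MTHFD2 and SLC7A5 were positive in both pairs of libraries, as were those of PHGDH and PSPH. A ratio of 2 libraries has no replicate check, and the 95% intervals given with it are exact conditional binomial intervals that cover counting error only. At 4 Gy the DZNep library was above the DMSO library in 8 of the 9 genes and in 49.6% of all tested genes, with median log2 ratios of 0.49 and -0.0043. At 0 Gy it was above in 7 of the 9 genes and in 47.9% of all tested genes, with medians of 0.46 and -0.03. PSAT1 had the larger ratio without radiation: its log2 ratio was 0.84 (interval 0.81 to 0.86) at 4 Gy and 1.26 (1.24 to 1.28) at 0 Gy. PHGDH had the larger ratio after radiation, 1.18 (1.11 to 1.26) at 4 Gy and 0.67 (0.60 to 0.73) at 0 Gy. The first 2 enzymes of the same route thus stood in opposite order at the 2 doses.

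SHMT2 differed least between doses, with log2 ratios of 0.49 at 4 Gy and 0.46 at 0 Gy, and MTHFD2 had 0.38 and 0.35. SLC3A2 had 0.72 at 4 Gy and 0.63 at 0 Gy, and SLC7A5 had 0.52 and 0.20. PSPH had 0.17 at 4 Gy and 0.77 at 0 Gy. SHMT1 had 0.07 (interval -0.01 to 0.15) at 4 Gy and -0.44 (-0.50 to -0.38) at 0 Gy, and MTHFD1 had -0.21 and -0.56. MTHFD1 was thus lower with DZNep in both pairs and SHMT1 in the unirradiated pair alone, where the DMSO library held the highest level of both genes.

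After radiation, 0 of the 9 genes rose and 0 fell in edgeR's quasi-likelihood test, and the serine synthesis genes and carriers lay on both sides of 0. Among all tested genes, 2.17% rose and 0.897% fell. At an unadjusted p under 0.05 there were 2 of the 9 genes, SHMT1 and MTHFD1, against 20.6% of all tested genes, a share near that background. DESeq2 called 1 lower, MTHFD1, against 1.62% of all tested genes. Both 4 Gy libraries lay below both 0 Gy libraries for these same 2 genes, as in 17.1% of tested genes, and above them for 0 of the 9, against 15.8% of tested genes. The median log2 fold change of the 9 genes was 0.02, against 0.01 over all tested genes.

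MTHFD1 had 44.8 and 51.8 CPM in the 4 Gy libraries with DZNep and DMSO, against 60.2 and 88.8 CPM in the 0 Gy libraries with DZNep and DMSO. Its log2 fold change was -0.60 (SE 0.16, 95% interval -0.95 to -0.25, adjusted p = 0.0633), the 534th lowest of the 13378 tested genes. It passed under plain library size scaling (adjusted p = 0.0412), with a 10 CPM filter (0.0066) and in DESeq2 (0.0365). SHMT1 had 25.0 and 23.8 CPM in the 4 Gy libraries with DZNep and DMSO, against 29.4 and 39.8 CPM in the 0 Gy libraries with DZNep and DMSO. Its log2 fold change was -0.49 (SE 0.18, 95% interval -0.88 to -0.10, adjusted p = 0.144). The remaining 7 genes had radiation log2 fold changes between -0.20 for PSAT1 and 0.20 for PSPH.

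In single pairs of libraries, radiation ratios differed between the drugs for several genes. The difference, the ratio in DZNep minus the ratio in DMSO, has no error estimate here. PSAT1 had a log2 radiation ratio of -0.41 (interval -0.43 to -0.40) in DZNep and 0.01 (-0.02 to 0.04) in DMSO, a difference of -0.42. PSPH had -0.10 (-0.21 to 0.01) in DZNep and 0.50 (0.37 to 0.62) in DMSO, a difference of -0.60. PHGDH ran the other way, with 0.33 (0.27 to 0.39) in DZNep and -0.19 (-0.27 to -0.11) in DMSO, a difference of 0.51. SHMT1 had -0.24 and -0.74, and MTHFD1 had -0.42 and -0.78, so both were lower at 4 Gy in each drug and by less in DZNep. Differences at least as large in absolute value were common: 18.1% of tested genes exceeded that of PSPH, 23.9% that of PHGDH and 31.6% that of PSAT1. SHMT2, MTHFD2 and SLC3A2 had differences of 0.02 to 0.09, which 82.3% to 95.1% of tested genes exceeded.

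**Figure D3:**
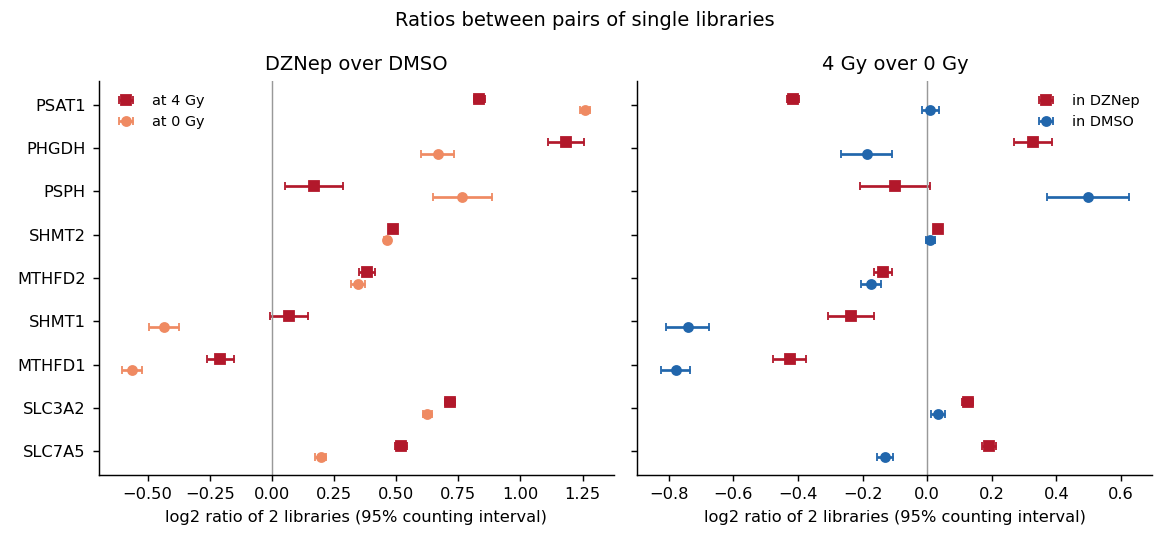
Log2 ratios of 2 libraries with exact 95% counting intervals for the 9 genes, on the left DZNep over DMSO at 4 Gy and at 0 Gy, on the right 4 Gy over 0 Gy in DZNep and in DMSO. SHMT2 and MTHFD2 have nearly equal ratios within each panel, whereas PSAT1, PHGDH, PSPH and SHMT1 lie apart.

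With both treatments against neither, PHGDH and PSAT1 stood highest, with DZNep 4 Gy over DMSO 0 Gy at log2 ratios of 0.99 (interval 0.93 to 1.06) and 0.85 (0.82 to 0.87). SLC3A2 followed at 0.75, PSPH at 0.67 and SHMT2 at 0.50. MTHFD1 stood lowest at -0.99 (-1.03 to -0.94), and SHMT1 was at -0.67 (-0.74 to -0.61). The median of the 9 genes was 0.50, against -0.03 over all tested genes.

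Per kb of exon, a scale on which different genes can be set beside each other, the 9 genes spanned from among the most abundant transcripts to the middle of the tested genes. Geometric means over the 4 libraries were 172 CPM per kb for SHMT2, 127 for PSAT1, 68.8 for SLC3A2, 51.5 for SLC7A5 and 31.8 for MTHFD2. The other 4 were lower, with MTHFD1 at 6.33, SHMT1 at 3.97, PSPH at 3.50 and PHGDH at 3.07 CPM per kb. Of the tested genes with a known length, 97.8% lay below SHMT2, 89.8% below MTHFD2 and 49.5% below PHGDH. Ranges over the 4 libraries overlapped between neighbours in this order except between SLC7A5 and MTHFD2, and between MTHFD2 and MTHFD1. Divided by the longest transcript in place of all exons, the same 5 genes led, SLC3A2 at 160 CPM per kb came before PSAT1, and the order of the lower 4 became SHMT1 at 10.5, PHGDH at 8.90, MTHFD1 at 8.71 and PSPH at 4.44 CPM per kb. In serine synthesis, PSAT1 thus exceeded both PHGDH and PSPH in every library on either length.

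Ratios of partner genes within a library do not depend on how libraries are scaled to each other. The mitochondrial over the cytosolic hydroxymethyltransferase, SHMT2 over SHMT1 in CPM per kb, was 59.9 in DZNep 4 Gy and 49.7 in DZNep 0 Gy, against 44.9 in DMSO 4 Gy and 26.7 in DMSO 0 Gy. The ratio of MTHFD2 over MTHFD1 was 7.20 in DZNep 4 Gy and 5.90 in DZNep 0 Gy, against 4.78 in DMSO 4 Gy and 3.14 in DMSO 0 Gy. Both ratios took the same order over the 4 libraries, with DMSO 0 Gy lowest and DZNep 4 Gy highest, 2.25 and 2.29 times apart. The light over the heavy chain, SLC7A5 over SLC3A2, was 0.688 in DZNep 4 Gy and 0.657 in DZNep 0 Gy, against 0.788 in DMSO 4 Gy and 0.884 in DMSO 0 Gy. It was thus lower in both DZNep libraries than in both DMSO libraries. These ratios have 1 value a group and no test. Their size depends on the length used: with the longest transcript SHMT2 over SHMT1 ran from 14.3 to 32.1 and SLC7A5 over SLC3A2 from 0.295 to 0.397, in the same order of libraries.

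**Figure D4:**
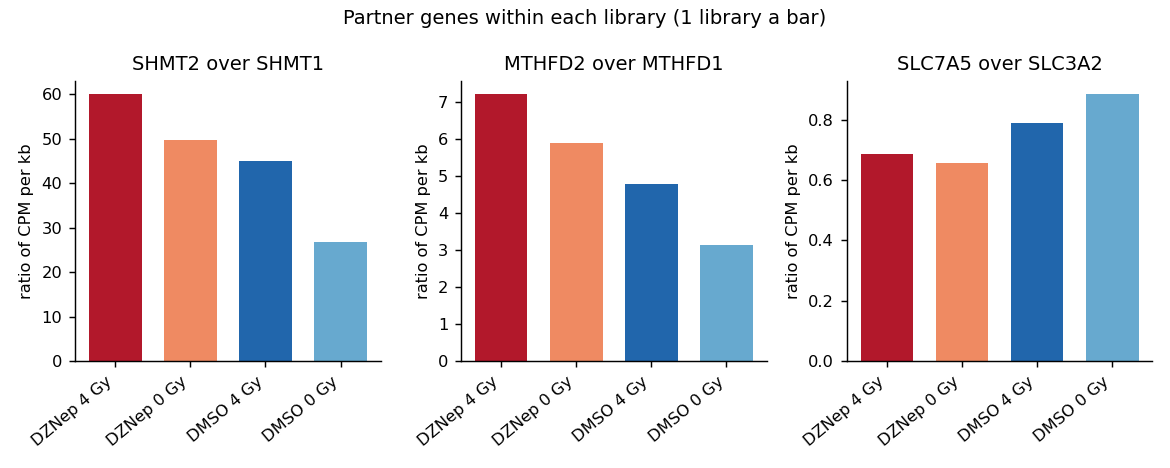
Ratio of CPM per kb of exon between 2 partner genes in each library, 1 bar a library and axes from 0. SHMT2 over SHMT1 and MTHFD2 over MTHFD1 are highest in DZNep 4 Gy and lowest in DMSO 0 Gy, and SLC7A5 over SLC3A2 is lower in both DZNep libraries.

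Over the 4 libraries, SHMT2 and SLC7A5 had the most alike patterns among the 9 genes, at a Euclidean distance of 0.19 between their log2 CPM centred on the gene's mean. SHMT2 lay at 0.21 from both SLC3A2 and MTHFD2, and SHMT1 and MTHFD1 lay at 0.24 from each other. PSAT1 and MTHFD1 were farthest apart, at 1.54. Among 6875 other genes at 10 CPM or more in every library, the nearest to PSAT1 were TSPAN14 at a distance of 0.12, WNT5A at 0.13 and TFPI2 at 0.16. The nearest to MTHFD2 were MBNL1, WDR20 and ZC3HC1 at 0.02 to 0.03, and the nearest to SLC7A5 were NDUFAF3, CDK10 and FOXRED2 at 0.04. With 4 libraries many genes share a pattern, and a distance is a description of these libraries.

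Around the 9 genes, 69 others were listed, of which 58 were tested. They are genes of the same pathways and 10 amino acid stress genes with ATF4, which are not themselves serine, folate or uptake genes. With DZNep 16 rose and 5 fell, against 10.8% and 12.3% of all tested genes. The median log2 fold change was 0.28, against -0.02 over all tested genes. Of the 16 that rose, 6 belong to the amino acid stress list, so the pooled values do not describe the pathways alone. After radiation 3 rose and 2 fell, against 2.17% and 0.897% of all tested genes. In the list of ATF4 and amino acid stress genes, 6 of 10 rose with DZNep and 0 fell (median 0.68). The other 4 did not pass, and of these DDIT3 and SESN2 had negative fitted values. That of DDIT3 was -0.56 (SE 0.20, adjusted p = 0.0587) and that of SESN2 was -0.04 (SE 0.18). DDIT3 had 20.1 and 8.85 CPM with DZNep at 4 and 0 Gy, against 23.8 and 16.2 CPM with DMSO at 4 and 0 Gy. ATF4 itself had 1016 and 1373 CPM with DZNep at 4 and 0 Gy, against 662 and 913 CPM with DMSO at 4 and 0 Gy, and rose by 0.60 (SE 0.13, adjusted p = 0.00558). ASNS, the asparagine synthetase, had 411 and 500 CPM with DZNep at 4 and 0 Gy, against 256 and 241 CPM with DMSO at 4 and 0 Gy. Like PSAT1 it was highest in DZNep 0 Gy, and it rose by 0.87 (SE 0.15, adjusted p = 0.00139). VLDLR, a lipoprotein receptor, rose by 1.67, CHAC1, a glutathione-degrading enzyme, by 1.65 and CEBPG, a C/EBP factor, by 0.89. After radiation 2 of these 10 rose, SESN2 by 1.31 (SE 0.19) and DDIT3 by 0.86 (SE 0.20), and 0 fell. The other 8 did not pass, and the median of the list was -0.001. ATF4 itself had a negative radiation value, -0.45 (SE 0.13, adjusted p = 0.0751).

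Among serine, glycine and neutral amino acid carriers, 5 of 11 tested genes rose with DZNep and 0 fell (median 0.52). Over all tested genes, 10.8% rose and 12.3% fell (median -0.02). The glycine transporter SLC6A9 had 107 and 55.1 CPM with DZNep at 4 and 0 Gy, against 32.1 and 18.5 CPM with DMSO at 4 and 0 Gy. It rose with DZNep by 1.66 (SE 0.16, adjusted p = 2.81e-05) and after radiation by 0.88 (SE 0.16, adjusted p = 0.0132), the single radiation call of its list. The glutamine carrier SLC38A2 rose with DZNep by 0.84 (SE 0.17) and SLC1A5, a neutral amino acid exchanger, by 0.75 (SE 0.15). Among 9 tested SLC7 and other large neutral amino acid carriers, 1 rose and 1 fell with DZNep and 0 passed after radiation. The DZNep counts are near the shares of all tested genes, 10.8% and 12.3%. SLC7A1, a cationic amino acid carrier, rose by 0.57 (SE 0.16). SLC7A8, the LAT2 light chain that also pairs with SLC3A2, had 3.91 and 4.09 CPM with DZNep at 4 and 0 Gy, against 13.8 and 11.1 CPM with DMSO at 4 and 0 Gy. It fell by 1.62 on the log2 scale (SE 0.21, adjusted p = 0.000224), whereas the fitted value of SLC7A5 was positive and did not pass.

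Other folate enzymes and carriers were called in both directions, with 2 of 17 tested genes rising and 2 falling with DZNep, shares near the 10.8% and 12.3% of all tested genes. MTHFD1L, the mitochondrial formate-releasing synthetase, had 97.8 and 69.8 CPM with DZNep at 4 and 0 Gy, against 38.3 and 48.6 CPM with DMSO at 4 and 0 Gy, and rose by 0.94 (SE 0.20, adjusted p = 0.00493). MTHFD2L, the mitochondrial paralog of MTHFD2, had 7.44 and 9.54 CPM with DZNep at 4 and 0 Gy, against 2.16 and 3.32 CPM with DMSO at 4 and 0 Gy. It rose by 1.65 (SE 0.24) and is named after its values were seen, since it stays under 10 CPM. MTR, the methionine synthase, fell with DZNep (-0.71, SE 0.18, adjusted p = 0.0138). TYMS, the thymidylate synthase, stood between 81.3 and 85.1 CPM in all 4 libraries and passed neither test; it too is named after its values were seen.

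Of the glycine cleavage system, GCSH, its lipoyl carrier protein, fell with DZNep (-1.01, SE 0.16) and after radiation (-0.70, SE 0.16), as 1 of 3 tested genes in each case. Over all tested genes, 12.3% fell with DZNep and 0.897% after radiation. GCSH had 17.1 and 29.8 CPM with DZNep at 4 and 0 Gy, against 36.9 and 56.3 CPM with DMSO at 4 and 0 Gy. Of 8 tested genes that use serine, 2 rose and 1 fell with DZNep, and 0 passed after radiation, counts too small to set apart from the shares over all genes. CTH, the cystathionine lyase of the route to cysteine, rose by 1.59 (SE 0.22) and CBS, the synthase before it, by 0.66 (SE 0.16). SPTLC3, a serine palmitoyltransferase subunit, fell by 2.10 (SE 0.41) and is also named after its values were seen, being under 10 CPM.

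**Figure D5:**
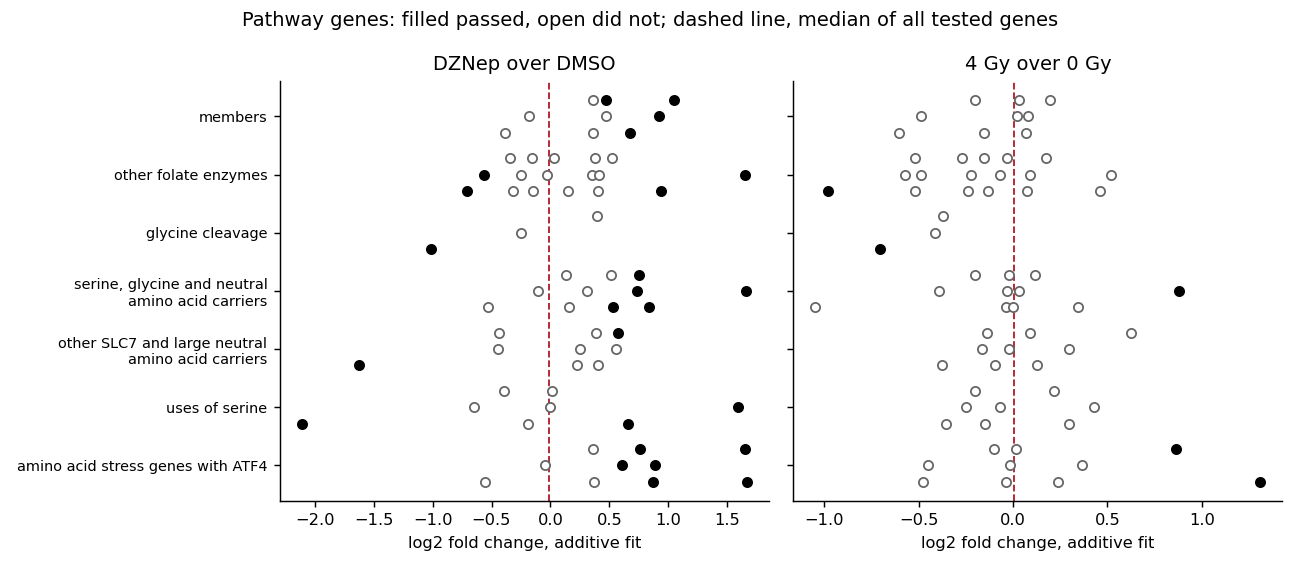
Log2 fold changes from the additive fit for the 9 genes and the 6 pathway lists, DZNep over DMSO on the left and 4 Gy over 0 Gy on the right, 1 point a gene, with vertical scatter for legibility. Filled points passed an adjusted p of 0.05, the dashed line is the median of all tested genes, and on the left the filled points of the ATF4 list and of the serine, glycine and neutral carriers all lie above 0.

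Some of these counts are uncertain, since other genes share sequence or position with them. The tables list MTHFD2P1 at 5 to 13 counts, SLC7A5P1 at 10 to 48 and SLC7A5P2 at 357 to 699 counts, or at most 2.09% of the SLC7A5 count, and reads shared with these copies cannot be assigned with certainty. GCSH and ATF4 also have processed copies elsewhere in the genome. In GENCODE 29, exons on the opposite strand overlap those of MTHFD2 (SLC4A5, 1324 bases, and AC006030.1, 295 bases) and SHMT1 (SMCR8, 196 bases). For MTHFD1 they are AL122035.2 (756 bases), ZBTB25 (178 bases) and AL122035.1 (101 bases). SHMT2 is overlapped by AC137834.2 (427 bases) and NDUFA4L2 (33 bases), and SLC7A5 by AC126696.2 (271 bases). The sources used here do not say whether counting used strand. In bulk RNA, less RNA per cell and fewer expressing cells cannot be told apart.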

How the data were processed

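For each of the 4 libraries the authors deposited 1 table of unnormalized counts by gene symbol. Per the labels' protocols, RNA was taken with Trizol and libraries were made with the Lexogen SENSE mRNA kit. TopHat, edgeR and hg19 are named in the submitters' processing notes, without versions. The counting program, its annotation and its strand setting were not given in the sources used here. Even values made up 55.9% to 58.1% of counts from 1 to 59, and whether mates of a fragment were counted apart was not tested. If they were, the counting intervals are too narrow.

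From these counts, edgeR 4.0.16 in R 4.3.3 was fitted to the 13378 genes with 1 CPM or more in at least 2 libraries, with TMM scaling, an additive model of drug and dose, and Benjamini-Hochberg adjustment over all tested genes. The model has 1 residual degree of freedom, moderated by 11.5 prior ones, and its spread is the departure of 4 libraries from additivity, which may be technical. The standard error is the absolute log2 fold change over the square root of F. Ratios of 2 libraries used a prior count of 2. Exon lengths by symbol came from GENCODE 29 and were matched for 94.3% of tested genes. Promoters came from RefSeq on GRCh38.p14, another build than that of the counts.

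The 9 genes, the pathway lists, the motifs and the alternatives were chosen with earlier results of these data known. By rule, the genes named beside the 9 were near-identical copies, the up to 3 largest called changes of each list at 10 CPM or more in a library, ATF4, ASNS, and the 3 nearest patterns to PSAT1, MTHFD2 and SLC7A5. One further gene that the rule names is not reported here. The fit was repeated with halved counts, with the other factor left out, without the filter, with a filter of 10 CPM, with RLE or plain library size scaling, and in DESeq2 1.42.0. Ratios and levels were repeated with a prior count of 0.5 and with the longest transcript as length.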

Additional observations from a re-analysis of the deposited data

Results flagged for a closer look

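PHGDH moved in opposite directions with radiation in the 2 drug groups, each beyond its counting interval: its log2 ratio of 4 Gy over 0 Gy was 0.33 in DZNep and -0.19 in DMSO, a difference of 0.51. SLC7A5 did so too, with 0.19 in DZNep and -0.13 in DMSO, a difference of 0.32. Such differences were common: 23.9% of tested genes exceeded that of PHGDH in absolute value and 43.4% that of SLC7A5. Each direction rests on 1 library against 1 library, and the difference was not tested, since no degree of freedom is left for it.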

How the results depend on the processing

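The 4 DZNep calls (PSAT1, PHGDH, SHMT2 and SLC3A2) were also made under RLE and plain library size scaling, without a filter, with a 10 CPM filter, with halved counts and in DESeq2. With dose left out of the model, 1 of the 9 genes was called, PSAT1. After radiation, 1 gene, MTHFD1, was called lower under plain library size scaling, with a 10 CPM filter and in DESeq2, and 0 under the other alternatives. Under plain library size scaling the radiation median of the 9 genes was -0.0113 (main value 0.0212), and the radiation ratio of SHMT2 in DZNep was also -0.0113 (main value 0.0331). The sign of both turned with the scaling. So did the DMSO radiation ratios of SHMT2 (0.0094 to -0.0113) and PSAT1 (0.0098 to -0.0109). The radiation log2 fold change of SLC7A5 also turned (0.0305 to -0.002). Plain library size leaves out the TMM factors. At 4 Gy these were 0.979 with DZNep and 0.999 with DMSO, and at 0 Gy they were 1.009 and 1.013. Why the factors differed was not tested.

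Over all tested genes, 1446 rose and 1640 fell with DZNep, against 355 and 366 with dose left out. After radiation 290 rose and 120 fell, against 351 and 266 under plain library size, 134 and 65 with no filter, 590 and 441 with a 10 CPM filter, 452 and 217 in DESeq2, and 0 and 0 with drug left out (524 genes at an unadjusted p under 0.05). Rises made up 70.7% of the radiation calls but 56.9% under plain library size and 57.2% with a 10 CPM filter. A prior count of 0.5 left every ratio inside its counting interval. With the longest transcript as length, 6 of 9 levels moved by more than their spread over the libraries. Leaving out a library was not possible in the fit, which would then have no residual degree of freedom. The counts allow no estimate of the spread between cultures of 1 group.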
